A study of Mus musculus with 6 samples.

Results

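The mRNA of 10 genes of inhibitory G-protein coupled receptors that act at the terminals of sensory neurons was measured in dorsal root ganglia (DRG) after ankle sprain. The genes were chosen by name from the 22064 gene rows of the table: Gabbr1, Gabbr2, Cnr1, Adora1, Adra2a, Adra2c, Sstr2, Npy1r, Npy2r and Chrm2. All 10 had a value in every library. The data cover 6 libraries of ipsilateral L3-5 DRG from wild type mice on day 14, with 3 from the LAS group and 3 from the sham group. In the LAS (lateral ankle sprain) model the ATFL and CFL, both lateral ligaments of the ankle, were cut through a skin incision, and in sham mice the same incision was made with the ligaments left whole. The study used C57BL/6 mice 6 to 8 weeks old of both sexes. The labels do not say which sex or how many animals a library holds. A p-value here thus sets the group difference against the spread between libraries, and the spread between animals is unknown.

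The receptors share a way of working. Each couples to G proteins of the Gi/o class, whose beta and gamma subunits close presynaptic calcium channels and open inward rectifier potassium channels, while the alpha subunit slows adenylyl cyclase. At the central terminal of a sensory neuron this lowers the release of glutamate and neuropeptides in the spinal dorsal horn, which is why agonists of several of these receptors are studied as analgesics. The mRNA is made in the cell body in the ganglion, so the DRG is where their transcript is measured.

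The GABA-B receptor works only as a pair of its subunits, and the transcripts of both, Gabbr1 and Gabbr2, kept close to a fixed ratio across the libraries, while Adra2a varied most among the LAS libraries. Among sham libraries Adra2a did not vary most, with a coefficient of variation of 15.0%, against 24.2% for Sstr2 and 19.7% for Npy1r. The start regions of Gabbr1, Gabbr2 and Adra2a are shown, and a tie between sequence and spread was not tested. RefSeq windows, from 250 bases before to 50 after a transcription start in GRCm38.p6, covered all 10 genes in 13 windows, and they are given 5′ to 3′ on the gene's strand. Capitals mark matches to 4 motifs searched on both strands. A GC box was spelled GGGCGG. The core of the cyclic AMP response element was spelled TGACG. The remaining motifs were the CCAAT box, searched by those letters, and the TATA box, searched as the letters TATAAA. The windows shown are chr17:37045716-37046015 on the plus strand for Gabbr1, chr4:46991665-46991964 on the minus strand for Gabbr2 and chr19:54045009-54045308 on the plus strand for Adra2a.
Gabbr1: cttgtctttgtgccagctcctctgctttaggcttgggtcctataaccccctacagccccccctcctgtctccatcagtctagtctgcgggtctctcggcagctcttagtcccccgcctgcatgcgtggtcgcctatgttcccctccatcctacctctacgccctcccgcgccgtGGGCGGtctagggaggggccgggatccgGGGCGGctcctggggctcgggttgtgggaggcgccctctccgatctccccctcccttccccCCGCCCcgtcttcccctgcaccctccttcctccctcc
Gabbr2: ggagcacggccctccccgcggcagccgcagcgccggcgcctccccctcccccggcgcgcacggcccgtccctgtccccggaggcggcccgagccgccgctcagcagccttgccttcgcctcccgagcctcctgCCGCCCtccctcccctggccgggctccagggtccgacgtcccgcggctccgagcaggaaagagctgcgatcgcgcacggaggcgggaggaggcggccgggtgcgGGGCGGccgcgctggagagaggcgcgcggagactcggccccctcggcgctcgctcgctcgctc
Adra2a: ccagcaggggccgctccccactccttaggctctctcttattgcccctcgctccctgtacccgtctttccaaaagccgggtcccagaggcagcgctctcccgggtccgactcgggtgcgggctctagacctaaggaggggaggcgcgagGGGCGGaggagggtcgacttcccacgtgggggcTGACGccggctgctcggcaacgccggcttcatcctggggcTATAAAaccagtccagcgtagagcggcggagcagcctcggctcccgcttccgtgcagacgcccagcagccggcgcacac
The Gabbr1 window held 3 GC boxes and was 67.3% G and C. The Gabbr2 window held 2 GC boxes and was 80.3% G and C, above 99.1% of all 32851 windows. Neither held the other motifs. The Adra2a window held 1 GC box, 1 TGACG and 1 TATAAA, and it was the only 1 of the 13 windows with TATAAA, which 13.6% of all windows hold. At 68.7% G and C it lay between the Gabbr1 and Gabbr2 windows. GC boxes were in 8 of the 13 windows, against 35.7% of all windows, and TGACG was in 2 of the 13, against 20.8%. The CCAAT box was in 2 of the 13, against 37.4% of all windows. The full response element TGACGTCA, which holds TGACG on both strands, was in the Sstr2 window alone and in 1.79% of all windows. These matches describe letters in the windows and say nothing of which factor binds there.

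The tissue labels were checked first. The summed FPKM (fragments per kilobase of gene, scaled to sequencing depth) of 14 neuronal marker genes was 11350 to 12120 in the LAS libraries and 11620 to 12000 in the sham libraries, so neuronal RNA was abundant in each. Sham replicate 3 stood apart: its summed level of 9 skeletal muscle genes was 1903 FPKM, against 29.8 to 238 FPKM in the other 5 libraries, and that of 10 neutrophil and bone marrow genes was 2264 FPKM, against 76.5 to 460 FPKM. The comparison of the receptors and of the pathway lists is therefore also given without that library. Since a ganglion is a mixture, fewer cells of a type and less RNA per cell cannot be told apart. FPKM values carry no read counts, so the depth behind single values is unknown.

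The 10 receptors covered a wide range of levels, and the GABA-B subunits led. FPKM is per length, so levels of genes can be set side by side. Gabbr1 averaged 120 FPKM over the 6 libraries, higher than 95.9% of the 14006 genes tested, and Gabbr2 averaged 63.0 FPKM, higher than 91.1% of them. These subunits made up 75.1% of the summed FPKM of all 10 genes. Adora1 came next at 24.1 FPKM. Npy1r at 9.21, Adra2c at 6.74, Cnr1 at 5.85 and Npy2r at 5.36 FPKM formed a middle group, followed by Chrm2 at 4.13, Sstr2 at 2.84 and Adra2a at 2.57 FPKM.

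In that order the first 3 steps were clear, with library ranges that did not overlap from Gabbr1 to Gabbr2, to Adora1 and to Npy1r. Gabbr1 was 1.91 times Gabbr2, Gabbr2 was 2.61 times Adora1, and Adora1 was 2.62 times Npy1r. The ranges of Npy1r and Adra2c, of Adra2c and Cnr1, and of Cnr1 and Npy2r overlapped, though Adra2c was above Cnr1 within each of the 6 libraries. Npy2r lay above Chrm2 and Chrm2 above Sstr2 with no overlap. Sstr2 and Adra2a overlapped, with Sstr2 higher in 5 of 6 libraries.

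**Figure D1:**
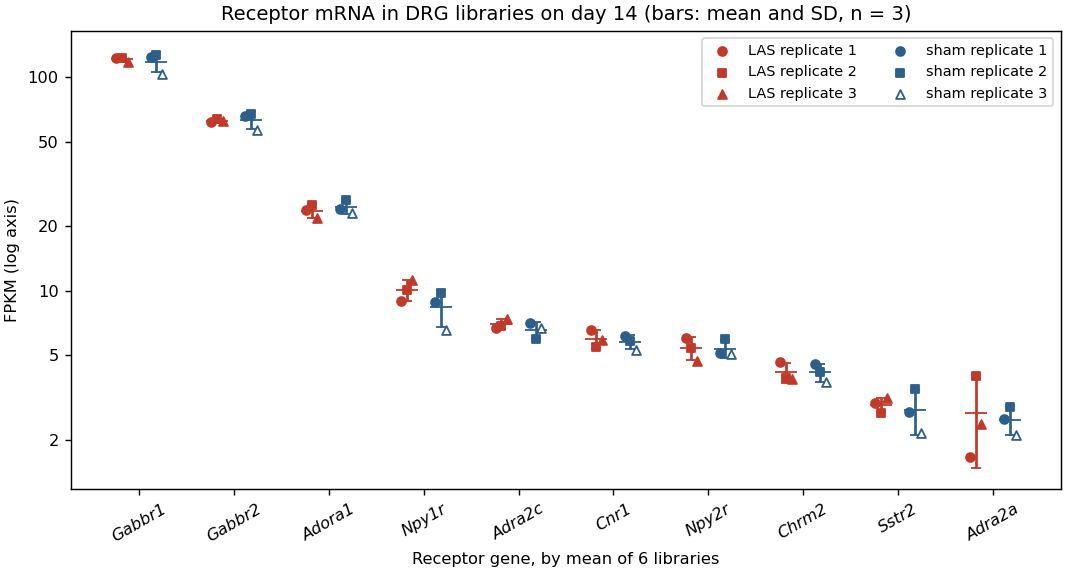
FPKM of the 10 receptor genes (log axis) in each LAS library (red) and sham library (blue), with the mean and SD of 3 libraries as bars and sham replicate 3 as an open triangle. Gabbr1 and Gabbr2 lie at 56.5 to 128 FPKM, far above the others, and the LAS and sham points overlap for each gene.

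None of the 10 receptors passed the test across all genes after ankle sprain. On log2(FPKM + 0.1), the limma fit over 14006 genes counted a gene as called where its adjusted p did not exceed 0.05 and its fold reached 1.5. It called 0 of the 10 receptors and 0% of all genes. The authors did report genes past a fold of 1.5 at a q-value of 0.05, with edgeR and limma-voom. Their fit is another measure than this one on FPKM. Before adjustment, 0 of the 10 receptors were past the unadjusted 0.05 level of limma, against 2.22% of all genes higher and 1.31% lower in LAS. Groups stood fully apart in 0 of the 10 receptors, against 5.89% of all genes higher and 3.81% lower. The log2 fold change was above 0 in 7 receptors and below 0 in 3, with a median of 0.035 beside 0.0043 for all genes tested. Of the 14006 genes tested, 7236 were above 0 and 6770 below 0. In the 6 libraries the adjusted p from limma was 1.00 for each receptor, and likewise for each gene of the pathway lists.

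The precision differed between receptors. For 8 of the 10 the 95% interval of the log2 fold change, unadjusted and from limma, lay within a fold of 1.5 in either direction (0.585 on the log2 scale), as it did for 82.5% of all genes tested. The intervals of Npy1r and Adra2a passed that fold. A change smaller than these intervals was not detectable with 3 libraries a group.

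**Figure D2:**
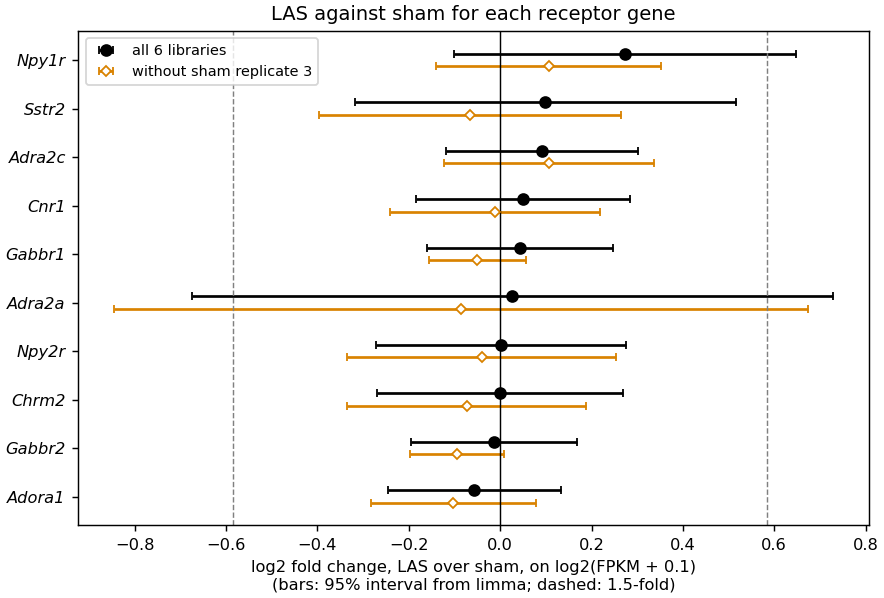
Log2 fold change of LAS over sham for each receptor gene with its 95% interval from limma, over all 6 libraries (black) and without sham replicate 3 (orange), with dashed lines at a fold of 1.5. Each interval holds 0, and those of Npy1r and Adra2a over 6 libraries pass a dashed line.

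The GABA-B receptor answers GABA, the main inhibitory transmitter of the dorsal horn. Gabbr1 encodes the subunit that binds GABA. It was at 124, 124 and 118 FPKM in LAS replicates 1 to 3, against 125, 128 and 104 FPKM in sham replicates 1 to 3. The LAS values lay inside the sham range, whose lower end was sham replicate 3. This gave a log2 fold change of 0.044 ± 0.086 (SE).

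Gabbr2 encodes the partner that brings the complex to the cell surface and couples it to the G protein. It was at 61.7, 63.9 and 62.1 FPKM in LAS libraries, against 66.2, 67.4 and 56.5 FPKM in sham libraries. The LAS values again sat between sham replicate 3 and the other sham libraries. Its log2 fold change was -0.014 ± 0.077 (SE).

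With sham replicate 3 left out, every LAS value of both subunits was below the 2 remaining sham values. Those were 2 of the 10 receptors, against 11.3% of all genes lower without overlap in these 5 libraries and 17.6% higher. Gabbr1 then had a log2 fold change of -0.050 ± 0.044 (SE, adjusted p = 0.74 from limma) and Gabbr2 one of -0.095 ± 0.043 (SE, adjusted p = 0.51 from limma). Gabbr1 thus turned direction with 1 library, and neither gene passed the test.

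The ratio of the subunits was the steadiest of 3 ratios between receptors that share a ligand. Gabbr1 over Gabbr2 was 2.006, 1.937 and 1.901 in LAS replicates 1 to 3, against 1.883, 1.892 and 1.839 in sham replicates 1 to 3. Each LAS ratio was above each sham ratio, although the lowest LAS and the highest sham ratio lay close. The mean was 1.95 ± 0.0534 in LAS and 1.87 ± 0.028 in sham libraries (SD, n = 3 each), a log2 difference of 0.057. The ratio is a description with no test, and the share of other gene ratios that stand apart was not computed. Of single genes, 5.89% of all tested were higher and 3.81% lower without overlap. For Gabbr1 over Gabbr2 the coefficient of variation was 2.96% over 6 libraries, against 21.5% for Npy1r over Npy2r and 32.4% for Adra2a over Adra2c. The GABA-B subunits also had the highest levels of the receptors, at 120 and 63.0 FPKM, and Adra2a the lowest, at 2.57 FPKM. The part of level in these spreads was not tested.

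The alpha-2 adrenoceptors respond to noradrenaline. Adra2a had the largest SE of the 10 genes, at 1.66, 3.99 and 2.36 FPKM in LAS libraries, against 2.51, 2.83 and 2.09 FPKM in sham libraries. LAS replicates 1 and 2 were the lowest and the highest of all 6 libraries, so the groups overlapped fully. The mean was 2.67 ± 1.20 FPKM in LAS and 2.48 ± 0.371 FPKM in sham libraries (SD, n = 3 each), and the log2 fold change came to 0.027 ± 0.30 (SE). It was 0.31 without LAS replicate 1 and -0.30 without LAS replicate 2.

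LAS replicate 2 also had the highest summed level of 8 leptomeningeal genes, 1113 FPKM against 163 to 257 FPKM in the other 5 libraries. It was highest for 9 genes of pericytes and vascular smooth muscle too, at 100.5 FPKM, against 61.4 to 77.8 FPKM. LAS replicate 1, where Adra2a was lowest, had the lowest pericyte and smooth muscle sum. Its leptomeningeal sum, 257 FPKM, was the highest after that of LAS replicate 2. Sham replicate 2 went the other way for pericytes and smooth muscle, with the highest sham value of Adra2a and the lowest sham sum, 67.4 FPKM. Other lists shared an extreme: the Schwann cell sum was lowest in LAS replicate 1 and the endothelial sum highest in LAS replicate 2. The sum of non-peptidergic nociceptor markers had the order of Adra2a among sham replicates 1 to 3, at 361.7, 406.4 and 332.5 FPKM. In LAS replicates 1 to 3 it was 362.3, 396.3 and 349.7 FPKM, highest in replicate 2 but lowest in replicate 3. The part of these cell types in the Adra2a values was not tested.

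Adra2c was at 6.66, 6.81 and 7.37 FPKM in LAS libraries, against 7.02, 5.90 and 6.65 FPKM in sham libraries. The groups overlapped, with sham replicate 2 lowest and LAS replicate 3 highest. On the log2 scale the fold change was 0.092 ± 0.089 (SE), and it was 0.022 without sham replicate 2. The ratio of Adra2a to Adra2c ranged over 0.249 to 0.586 among LAS libraries, against 0.314 to 0.480 among sham libraries. Adra2b, the remaining alpha-2 gene and named outside the rule for pathway genes once its values were known, was at 0.13 to 0.19 FPKM in LAS and 0.09 to 0.21 FPKM in sham libraries, below the level needed for testing.

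Neuropeptide Y acts on both Npy1r and Npy2r. Npy1r had the largest log2 fold change of the 10, 0.27 ± 0.16 (SE, unadjusted p = 0.127 from limma). It was at 8.90, 10.1 and 11.2 FPKM in LAS libraries, against 8.88, 9.72 and 6.53 FPKM in sham libraries. The sham value that stood lowest was again replicate 3. Left out, that library took the log2 fold change down to 0.11 ± 0.10 (SE, adjusted p = 0.76 from limma).

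Npy2r was at 6.02, 5.39 and 4.69 FPKM in LAS libraries, against 5.10, 5.92 and 5.02 FPKM in sham libraries. LAS libraries held both the highest and the lowest value, and the log2 fold change came to 0.0020 ± 0.12 (SE). Npy1r over Npy2r was 1.48, 1.87 and 2.38 in LAS libraries, against 1.74, 1.64 and 1.30 in sham libraries. These ratios overlapped. Npy itself, picked once its values were known, was at 8.84 to 19.6 FPKM in LAS and 11.4 to 33.8 FPKM in sham libraries, with the highest value in sham replicate 3.

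Adora1 encodes an adenosine receptor through which adenosine lessens pain in rodents. It was at 23.8, 25.3 and 21.8 FPKM in LAS libraries, against 24.3, 26.5 and 23.0 FPKM in sham libraries. Its groups overlapped, and the log2 fold change came to -0.056 ± 0.080 (SE), the lowest of the 10. It was close to 0 without LAS replicate 3 (-8.2e-05) or sham replicate 2 (-0.0017). An exon of Adora1 overlaps one of Mybph on the other strand in GENCODE M21, and nothing says whether strand was kept, so reads of these genes may not be told apart.

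Cnr1 encodes the cannabinoid receptor of neurons. It was at 6.55, 5.44 and 5.87 FPKM in LAS libraries, against 6.14, 5.83 and 5.26 FPKM in sham libraries. The highest value was in LAS replicate 1 and the lowest in sham replicate 3, with overlap between. LAS over sham was 0.050 ± 0.099 on the log2 scale (SE). Cnr2, the cannabinoid receptor of immune cells, likewise picked with its values known, was at 0.24 to 0.32 FPKM in LAS and 0.20 to 0.53 FPKM in sham libraries and was not tested.

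Sstr2 encodes a somatostatin receptor. It was at 2.96, 2.67 and 3.12 FPKM in LAS libraries, against 2.68, 3.47 and 2.14 FPKM in sham libraries. Sham libraries held both ends of its range. With this spread the log2 fold change was 0.099 ± 0.18 (SE). Sst, the precursor of its ligand and named after its values were seen, was at 8.57 to 11.6 FPKM in LAS and 11.0 to 15.8 FPKM in sham libraries, which overlapped.

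Chrm2 encodes a muscarinic acetylcholine receptor. It was at 4.63, 3.90 and 3.86 FPKM in LAS libraries, against 4.52, 4.16 and 3.71 FPKM in sham libraries. The group means were 4.13 ± 0.433 FPKM in LAS and 4.13 ± 0.406 FPKM in sham libraries (SD, n = 3 each). Accordingly the log2 fold change was -0.00040 ± 0.11 (SE), with a 95% interval of -0.27 to 0.27. An exon of Chrm2 overlaps an antisense gene, 9330158H04Rik, with the same limit on strand. Chrm4, which also couples to Gi/o and was likewise picked with its values known, was at 3.34 to 3.93 FPKM in LAS and 3.33 to 4.03 FPKM in sham libraries.

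**Figure D3:**
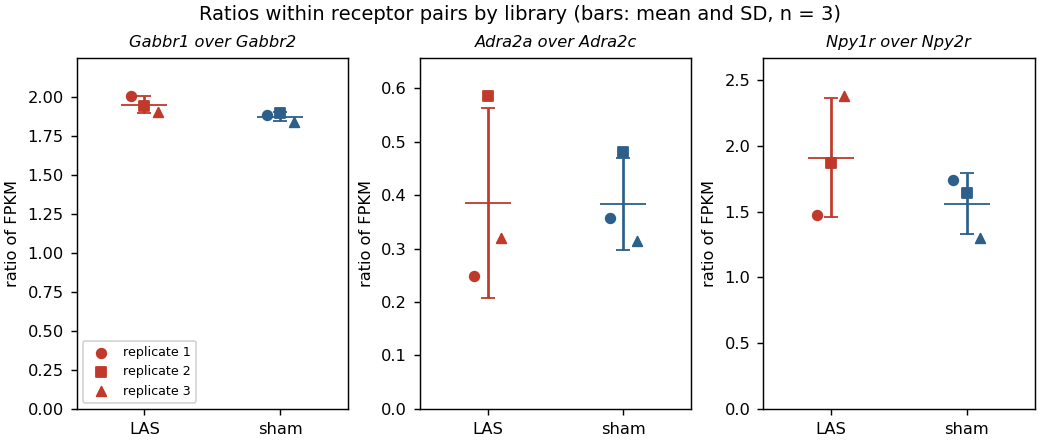
Ratio of FPKM within 3 receptor pairs in each library, LAS (red) left of sham (blue), with mean and SD (n = 3) as bars and axes that start at 0. Gabbr1 over Gabbr2 stays between 1.84 and 2.01, while the other ratios spread widely in both groups.

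Several receptors turned direction without sham replicate 3, though Cnr1, Adra2a and Npy2r also turned without other single libraries. All 10 were lower in sham replicate 3 than the mean of the other 5 libraries, with differences of -1.51% for Adra2c to -33.0% for Npy1r. The share of all genes lower than that mean was not computed. In sham replicate 3, 6 of the 10 had their lowest value, as did 25.0% of all genes tested. None of the 10 had its highest value there, against 33.4% of all genes tested. Its neuronal marker sum was 11900 FPKM, within the range of the other libraries. The sum of 10 markers of non-peptidergic nociceptors was lowest there, 333 FPKM against 350 to 406 FPKM, while that of 8 peptidergic markers was 1339 FPKM, against 1244 to 1377 FPKM. The sum of 10 markers of myelinated sensory neurons was highest there, 1873 FPKM against 1496 to 1819 FPKM. The part of muscle, marrow or neuron composition in the receptor values was not tested.

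Without sham replicate 3, 2 receptors had a log2 fold change above 0 and 8 had one below 0, and 5 of the 10 turned direction. Of the 14006 genes tested, 8139 were then above 0 and 5867 below 0. The median log2 fold change of the receptors became -0.057, beside 0.024 for all genes tested. Limma called 0 of the 10 receptors and 0% of all genes, and 0 receptors were past the unadjusted 0.05 level of limma, against 6.45% of all genes higher and 3.72% lower. The lowest adjusted p of a receptor was 0.51, for Gabbr2. The receptors that kept their direction were Npy1r and Adra2c, higher, and Gabbr2, Adora1 and Chrm2, lower. Chrm2 was at -0.00040 over 6 libraries and turned without LAS replicate 2 or 3 or sham replicate 1 or 2. Gabbr2 turned without sham replicate 1 or 2.

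**Figure D4:**
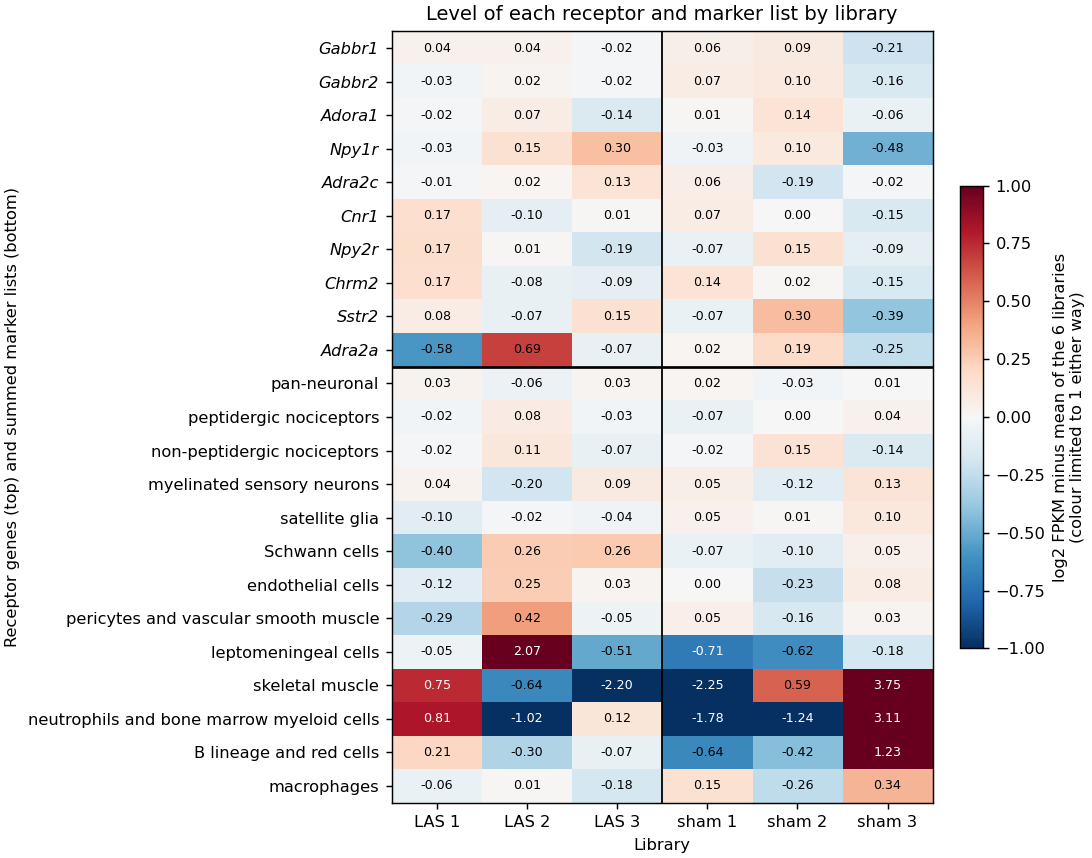
Log2 FPKM minus the mean of the 6 libraries for each receptor (top) and for the summed FPKM of each marker list (bottom), LAS libraries left of sham libraries, with the value printed in each cell. Sham replicate 3 is below 0 for all 10 receptors and above 1 for skeletal muscle, neutrophil and B lineage and red cell markers.

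The other genes of the pathway were described by lists, and groups that stood apart in single genes of them are to be read beside the 5.89% of all genes higher and 3.81% lower without overlap. Counts above and below 0 are to be read beside 7236 above and 6770 below of all 14006 genes tested. Of 24 other receptors that couple to Gi/o, 12 reached the level for testing, and limma called 0 of them higher and 0 lower. The log2 fold change was above 0 in 8 and below 0 in 4, with a median of 0.0062. Gpr37l1, an orphan receptor of glia, led at 37.4 ± 1.01 FPKM in LAS and 35.4 ± 2.49 FPKM in sham libraries (SD, n = 3 each). Grm7, a presynaptic glutamate receptor, was at 16.9 ± 1.09 FPKM in LAS and 17.4 ± 1.72 FPKM in sham libraries (SD, n = 3 each).

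Grm4, another inhibitory glutamate receptor, had the smallest p of this list. It was at 13.7, 13.4 and 13.4 FPKM in LAS libraries, against 15.3, 14.7 and 15.2 FPKM in sham libraries. Each LAS library was below each sham library. LAS over sham was -0.16 ± 0.053 on the log2 scale (SE), and it did not pass. Hrh3, a histamine receptor, was at 2.41, 2.80 and 2.75 FPKM in LAS libraries, against 2.18, 2.46 and 2.25 FPKM in sham libraries, and its groups overlapped.

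Of 20 G protein subunit genes all were tested, with 17 above 0 and 3 below 0, a median log2 fold change of 0.056 and 0 called. Gnao1, the Gi/o alpha subunit of neurons, was at 355 ± 14.6 FPKM in LAS and 353 ± 28.8 FPKM in sham libraries (SD, n = 3 each). Gng3, a neuronal gamma subunit, was at 351 ± 31.9 FPKM in LAS and 351 ± 32.0 FPKM in sham libraries (SD, n = 3 each). Both were far above the receptors in level.

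The gamma subunits Gng8 and Gng10 had the smallest p of the list. Gng8 was at 15.8, 16.5 and 15.7 FPKM in LAS libraries, against 14.2, 15.0 and 14.5 FPKM in sham libraries, without overlap (log2 fold change 0.14 ± 0.056, SE). Gng10 was at 10.2, 12.3 and 11.4 FPKM in LAS libraries, against 8.36, 8.70 and 11.1 FPKM in sham libraries. The sham value inside the LAS range was replicate 3. Gng13, at 0.97 to 1.78 FPKM in LAS and 0.16 to 0.98 FPKM in sham libraries, had the largest log2 fold change of all 5 lists, 1.09, and was chosen after its values were seen. That value rested on sham replicate 1, the sham library at 0.16 FPKM, and it was 0.41 without it.

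Of 28 tested partners and regulators, 16 were above 0 and 12 below 0, with a median log2 fold change of 0.0015 and 0 called. Rgs4 and Rgs10, which speed the shut-off of G proteins, had the highest levels. Rgs4 was at 295 ± 29.9 FPKM in LAS and 286 ± 22.9 FPKM in sham libraries (SD, n = 3 each). Rgs10 was at 138 ± 11.1 FPKM in LAS and 138 ± 15.3 FPKM in sham libraries (SD, n = 3 each). Rgs17, of the same family, was at 6.52, 6.37 and 6.44 FPKM in LAS libraries, against 5.75, 5.88 and 4.89 FPKM in sham libraries, without overlap (log2 fold change 0.23 ± 0.089, SE).

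Rgs12 went the other way in value, at 5.13, 4.51 and 5.72 FPKM in LAS libraries, against 5.61, 5.90 and 6.25 FPKM in sham libraries. Its groups overlapped. The auxiliary subunits of the GABA-B receptor were named after their values were seen. Kctd8 was at 18.1 to 20.6 FPKM in LAS and 19.7 to 21.9 FPKM in sham libraries, Kctd16 was at 7.56 to 7.73 FPKM in LAS and 5.92 to 7.47 FPKM in sham libraries, and Kctd12 was at 2.67 to 3.06 FPKM in LAS and 2.36 to 3.47 FPKM in sham libraries. Kctd12b, at a far lower level, was at 0.67 to 0.71 FPKM in LAS and 0.38 to 0.57 FPKM in sham libraries. The groups were apart for Kctd16 and Kctd12b and overlapped for Kctd8 and Kctd12.

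Of 17 tested effector genes, 11 were above 0 and 6 below 0, with a median log2 fold change of 0.029 and 0 called. Snap25, a release protein bound by G protein beta and gamma subunits, was at 740 ± 30.6 FPKM in LAS and 731 ± 61.2 FPKM in sham libraries (SD, n = 3 each). Prkaca, a catalytic subunit of protein kinase A, was at 112 ± 8.60 FPKM in LAS and 108 ± 4.59 FPKM in sham libraries (SD, n = 3 each). Adcy8 and Adcy4, both adenylyl cyclases, had the smallest p. Adcy8 was at 2.12, 2.04 and 2.56 FPKM in LAS libraries, against 2.75, 2.70 and 2.68 FPKM in sham libraries, without overlap (log2 fold change -0.27 ± 0.12, SE). Adcy4 was at 1.93, 3.04 and 2.34 FPKM in LAS libraries, against 2.01, 1.99 and 1.86 FPKM in sham libraries, which overlapped.

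Among the channels that the receptors act on, named after their values were seen, Cacna1b encodes the N-type calcium channel and Cacna1a the P/Q-type channel. Cacna1b was at 25.8 to 27.2 FPKM in LAS and 22.0 to 30.2 FPKM in sham libraries. Cacna1a was at 19.9 to 20.7 FPKM in LAS and 17.7 to 21.5 FPKM in sham libraries. The potassium channel gene Kcnj3 was at 5.85 to 7.31 FPKM in LAS and 5.86 to 6.71 FPKM in sham libraries. Its partner Kcnj6 was at 0.45 to 0.53 FPKM in LAS and 0.40 to 0.42 FPKM in sham libraries, apart but below the level for testing.

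The ligand list held enzymes that make or remove the transmitters of these receptors. Of 19 tested genes 8 were above 0 and 11 below 0, with a median log2 fold change of -0.014 and 0 called. Daglb and Nt5e had the smallest p, and they differed in direction. Daglb, which makes the endocannabinoid that acts on Cnr1, was at 5.90, 5.49 and 5.87 FPKM in LAS libraries, against 6.89, 6.89 and 7.23 FPKM in sham libraries. The groups were apart (log2 fold change -0.28 ± 0.069, SE, unadjusted p = 0.00499 from limma).

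Nt5e, which makes adenosine outside the cell, was at 14.6, 16.4 and 15.0 FPKM in LAS libraries, against 13.4, 13.1 and 12.2 FPKM in sham libraries. The groups were apart (log2 fold change 0.25 ± 0.070, SE, unadjusted p = 0.00976 from limma). Adk, which removes adenosine inside the cell, was at 107, 110 and 105 FPKM in LAS libraries, against 91.0, 97.4 and 102 FPKM in sham libraries, also apart (log2 fold change 0.15 ± 0.061, SE). Acpp, a phosphatase of nociceptors that also makes adenosine, was at 106 ± 5.69 FPKM in LAS and 103 ± 8.05 FPKM in sham libraries (SD, n = 3 each). Ada, which also removes adenosine and was named after its values were seen, went the other way. It was at 1.23 to 1.57 FPKM in LAS and 1.60 to 2.26 FPKM in sham libraries, apart (log2 fold change -0.44 ± 0.17, SE). None of these enzymes passed the adjustment. Without sham replicate 3, limma called 0 genes of any list. The median log2 fold changes were then -0.060 for the other receptors, 0.071 for the G protein subunits, 0.050 for partners and regulators, -0.023 for effectors and 0.022 for ligands and enzymes. The medians of the other receptors, the effectors and the ligand list thus changed sign with that library.

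**Figure D5:**
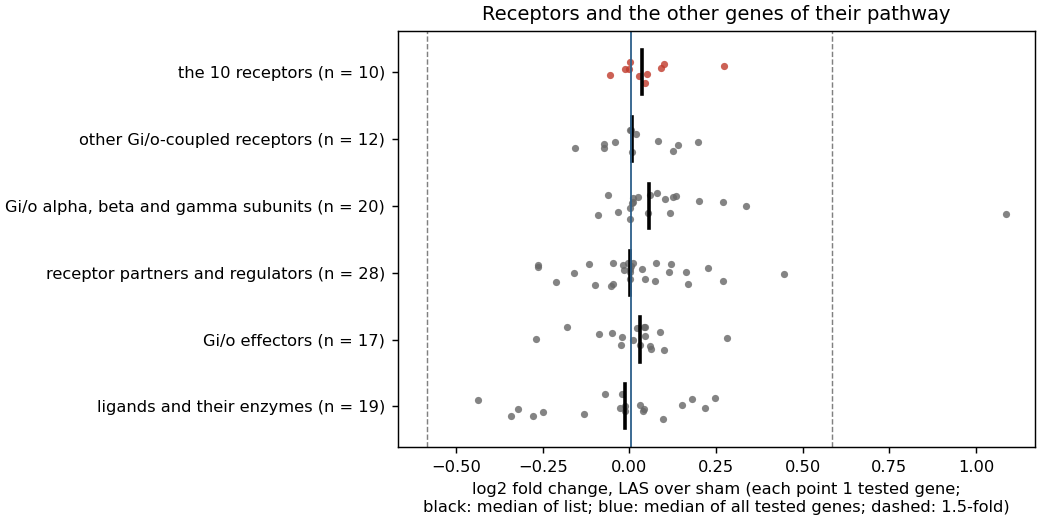
Log2 fold change of LAS over sham for the 10 receptors (red) and for each tested gene of 5 pathway lists (grey), with list medians in black, the median of all tested genes in blue and a fold of 1.5 dashed. List medians lie between -0.014 and 0.056, and a single gene, Gng13, passes a dashed line.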

How the data were processed

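RNA of ipsilateral L3-5 DRG was sequenced on a BGISEQ-500 and aligned to the mouse genome by the authors, who deposited FPKM values per gene, rounded to 2 decimals. These are not counts. The tools behind them (aligner, build, annotation) were not given in the sources used here. Columns with p, q and log2 fold values of the deposited comparison were not used. The 10 genes were matched by symbol.

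From the FPKM values, log2(FPKM + 0.1) was fitted with limma 3.58.1 in R 4.3.3 (variance trended on level, adjustment after Benjamini and Hochberg). The 14006 genes fitted reached 0.5 FPKM in 3 or more libraries, and the fit was tested on simulated data. Such fold changes understate the change of low genes. Named pathway genes are the 2 with the smallest p and the 2 highest in each list, with exceptions stated beside them. Members and lists were chosen with earlier results of these data known. Correlations of receptors with marker sums, planned at first, are not given, and the sums stand beside the receptors. Alternatives covered the pseudocount, filter, scaling, variance model, library weights, thresholds, a replicate block and each library left out. Tables and figures used Python 3.11.15 and pandas 2.3.3. Promoter windows are RefSeq's, with coordinates in GRCm38.p6.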

Additional observations from a re-analysis of the deposited data

How the results depend on the processing

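No setting tried called any gene: the count stayed at 0 of all genes tested, with the smallest adjusted p from limma at 0.0890 (no variance trend) and 0.137 (without sham replicate 3). Before adjustment, 495 genes were past the 0.05 level of limma over 6 libraries and 1425 without sham replicate 3, and the cause was not tested. Deviations from the group mean in LAS and sham libraries of equal replicate number had correlations of -0.407, 0.238 and -0.151. Deviations within a group of 3 are tied to each other, and sham replicate 3 stood apart. These correlations therefore cannot show whether the libraries were paired. With the replicate number as a block 0 genes were called, the smallest adjusted p from limma being 0.830.

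Of 170 log2 fold changes of receptors under 17 alternatives, 142 kept their direction and 28 did not, and none of the receptors passed the test in any. The settings of the filter, the variance trend and the replicate block leave the log2 fold change itself unchanged. They could not turn a direction, so the 142 overstate how steady the directions were. Adora1, Adra2c and Npy1r kept their direction throughout, though Adora1 came as close to 0 as -8.2e-05 without LAS replicate 3. So did 11 pathway genes (the 10 with the smallest p and Adk). Those 10 were picked by p in these same libraries, so their kept direction adds no support. Gng13 kept its direction in the 16 alternatives that gave it a value, from 0.41 to 1.43. It was not run under the stricter filter, which it did not pass. With array weights, Gabbr1 was at -0.048, Adra2a at -0.12, Sstr2 at -0.011 and Npy2r at -0.095. Rescaled to TPM, Gabbr2 was at 0.0075 and Chrm2 at 0.021, and with quantile normalization Npy2r was at -0.0061. Scaling to the neuronal marker sum with sham replicate 3 left out, chosen after seeing the data, gave -0.054 for Gabbr1, -0.015 for Cnr1, -0.089 for Adra2a, -0.069 for Sstr2 and -0.045 for Npy2r. Leaving out each library in turn gave ranges of -0.050 to 0.098 for Gabbr1, -0.095 to 0.033 for Gabbr2, -0.020 to 0.11 for Cnr1, -0.30 to 0.31 for Adra2a, -0.065 to 0.27 for Sstr2, -0.083 to 0.094 for Npy2r, -0.083 to 0.065 for Chrm2, -0.11 to -8.2e-05 for Adora1, 0.022 to 0.15 for Adra2c and 0.11 to 0.39 for Npy1r. For these settings the cause was not tested. With 3 libraries a group, an exact permutation test of a single gene cannot go below p = 0.10.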
